A study of Mus musculus with 8 samples.

Results

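The mitochondrial carriers encoded by the Slc25 genes were read in 8 single myocardial cells of the mouse heart tube at embryonic day 8.5, at the stage of 9 somites. The members were all genes whose name on the array is Slc25a followed by a number, 47 of the 24062 genes with a symbol and a value in every cell. They were covered by 59 probes, and the probe of highest mean signal over the 8 arrays stood for each gene. The 4 WT cells came from embryos with the genotype Mesp1+/+ and Sox17flox/flox, and the 4 KO cells from embryos with Mesp1Cre/+ and Sox17flox/flox. Both genotypes therefore carried the floxed Sox17 gene, and KO cells in addition a Mesp1 allele that drives Cre in early mesoderm, a tissue that gives rise to heart muscle, endocardium and vessels alike. Each array held amplified cDNA of 1 cell, and the cell type had been identified by PCR of marker genes. The comparison addressed whether loss of Sox17 in mesoderm alters the transcripts of myocardial cells.

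Slc25 proteins sit, with few exceptions, in the inner mitochondrial membrane, where they exchange nucleotides, phosphate, amino acids, carboxylates, cofactors and metal ions between the cytosol and the matrix. They share a fold made of repeated pairs of membrane-spanning helices, and each substrate group has its own members. Heart muscle is rich in the ADP/ATP carrier Slc25a4 and the phosphate carrier Slc25a3, which serve ATP synthesis, and moves the reducing power of cytosolic NADH into mitochondria by the malate-aspartate shuttle, which needs the aspartate/glutamate carriers Slc25a12 and Slc25a13 together with the oxoglutarate/malate carrier Slc25a11.

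Which embryo or litter a cell came from is not in the labels. The 4 cells of a genotype were for that reason taken as 1 sample, the genotypes are compared by size without a test, and the SD stands for how far single cells differed. The WT arrays shared 1 slide and the KO arrays shared the other slide, and an effect of the slide and one of the genotype cannot be told apart. Signals are fluorescence intensities on a linear scale after each array was scaled on its 50th percentile, with values under 50 set to 50, the floor. Detected means that the scanner software called the spot well above background, and a detected spot can still lie at the floor. A member was counted as lower or higher when the genotype means of its log2 signal were at least 5-fold apart, 2.32 on that scale.

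These arrays give no check of the deletion, since the Sox17 probes and the Mesp1 probe were detected in 0 of 8 cells and so also in no WT cell. Each of 10 myocardial markers was detected in every cell, though Actn2 lay at the floor in WT cell 1. Endothelial markers were few, 2 to 4 of 10 per cell, with summed signals of 974.5 to 1142 in WT and 898.2 to 1117 in KO cells, and Cdh5, Tek, Emcn, Tal1 and Nfatc1 were detected in 0 cells. Every cell read Kdr, at 442.9 to 692.4, and Plvap, at 99.2 or less. The sums count each marker at the floor as 50, and Kdr and, in some cells, Plvap were the only endothelial markers above it. The markers of red blood cells, endoderm and neural crest lay at the floor in every cell. Some were detected there, Hba-a1 in 3 KO cells, Ttr in 2 WT cells, Foxa2 in 1 KO cell and Sox10 in 2 cells of each genotype. Of all genes, WT cells read 21.97% to 30.87% and KO cells 19.11% to 27.73%, and this share was smallest in KO cells 3 and 2 and WT cell 1.

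The Slc25 members at least 5-fold lower in KO cells were Slc25a12, Slc25a13 and Slc25a38, and their probes are identified here by the first 30 of their 60 bases, as printed on the array, in lower case with no part marked.
Slc25a12 probe: cgtgttgaaatgttttctgagccttggcat
Slc25a13 probe: ggaagtgctttgggccgttttattatagag
Slc25a38 probe: gttgtcctgatttcctcacatgcacccaga
Their positions are chr2:71112979-71113038, chr6:5991482-5991541 and chr9:120033376-120033435 in mouse build mm9, the first 2 on the minus and the last on the plus strand, and exon and UTR annotation of that build was not used here. Over their 60 bases the probes of the related genes Slc25a12 and Slc25a13 shared no run longer than 6 bases, which was also the median over the 1081 pairs of members, and the longest run shared by any pair was 11 bases.

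The promoters of the same 3 genes follow, as 300-base windows from 250 bases before to 50 bases after the start of the RefSeq transcript (assembly GRCm38.p6), so that the sequence upstream of members that differed together can be compared. Capitals mark the core motif of ETS factors, CCGGAAG.
Slc25a12 promoter, chr2:71367706-71368005, minus strand: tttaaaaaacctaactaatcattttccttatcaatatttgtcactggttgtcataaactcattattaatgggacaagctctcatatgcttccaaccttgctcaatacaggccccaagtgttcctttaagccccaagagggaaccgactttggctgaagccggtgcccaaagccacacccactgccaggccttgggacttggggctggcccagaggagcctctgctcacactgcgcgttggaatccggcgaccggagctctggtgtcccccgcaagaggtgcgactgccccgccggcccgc
Slc25a13 promoter, chr6:6217124-6217423, minus strand: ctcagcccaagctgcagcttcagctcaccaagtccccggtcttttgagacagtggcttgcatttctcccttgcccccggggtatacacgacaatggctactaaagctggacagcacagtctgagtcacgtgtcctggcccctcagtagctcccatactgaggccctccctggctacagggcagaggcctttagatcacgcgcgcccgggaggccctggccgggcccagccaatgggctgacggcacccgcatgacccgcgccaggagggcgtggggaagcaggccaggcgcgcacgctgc
Slc25a38 promoter, chr9:120110132-120110431, plus strand: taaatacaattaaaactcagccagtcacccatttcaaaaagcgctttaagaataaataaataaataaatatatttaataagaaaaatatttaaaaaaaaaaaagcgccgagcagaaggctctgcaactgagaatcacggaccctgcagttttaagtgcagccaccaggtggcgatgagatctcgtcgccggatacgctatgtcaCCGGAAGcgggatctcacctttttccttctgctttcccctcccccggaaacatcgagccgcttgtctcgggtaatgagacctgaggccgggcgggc
The windows of Slc25a12 and Slc25a13 held none of the 7 motifs searched, and that of Slc25a38 held the ETS motif alone. Their GC content was 54.3%, 65.0% and 45.3%, against a median of 59.33% over the 46 windows of the 36 Slc25 genes that matched the table and 52.67% over all 32851 windows. Both strands were searched. The ETS motif lay in 15.22% of the Slc25 windows (7 genes, among them Slc25a3, Slc25a4 and Slc25a20) and in 8.86% of all windows. The motif of NRF1, a regulator of genes for mitochondrial proteins, lay in 4.35% and 4.6%. A motif of SOX factors, ATTGTT, lay in 0 of 46 Slc25 windows and in 10.72% of all windows. The motif AGATAA, bound by GATA factors, lay in 6.52% and 11.18%. TGACGTCA, the cyclic AMP response element, lay in 4.35% and 1.79%. AAGATGGC, the motif of YY1, lay in 2.17% and 2.75%. AAGGTCA, the motif of estrogen-related receptors, lay in 2.17% and 4.72%. A match is a run of letters and not a site of binding.

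Of the 47 members, 29 were detected in at least 1 cell, and 18 were detected in none (38.3%), against 48.1% of all genes. Only 4 members, among them Slc25a4, Slc25a5 and Slc25a37, were detected in all 8 cells, which is 8.51% of the members against 9.45% of all genes. A further 11 were detected in cells of both genotypes, 10 in WT cells only and 4 in KO cells only. Of these 1-genotype members, 11 were read in a single cell. The 10 members of WT cells only made up 21.28% (12.59% of all genes), and the 4 of KO cells only 8.51% (7.31% of all genes). Signal above the floor was read for 21 members, 17 of them in a WT cell and 15 in a KO cell.

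**Figure D1:**
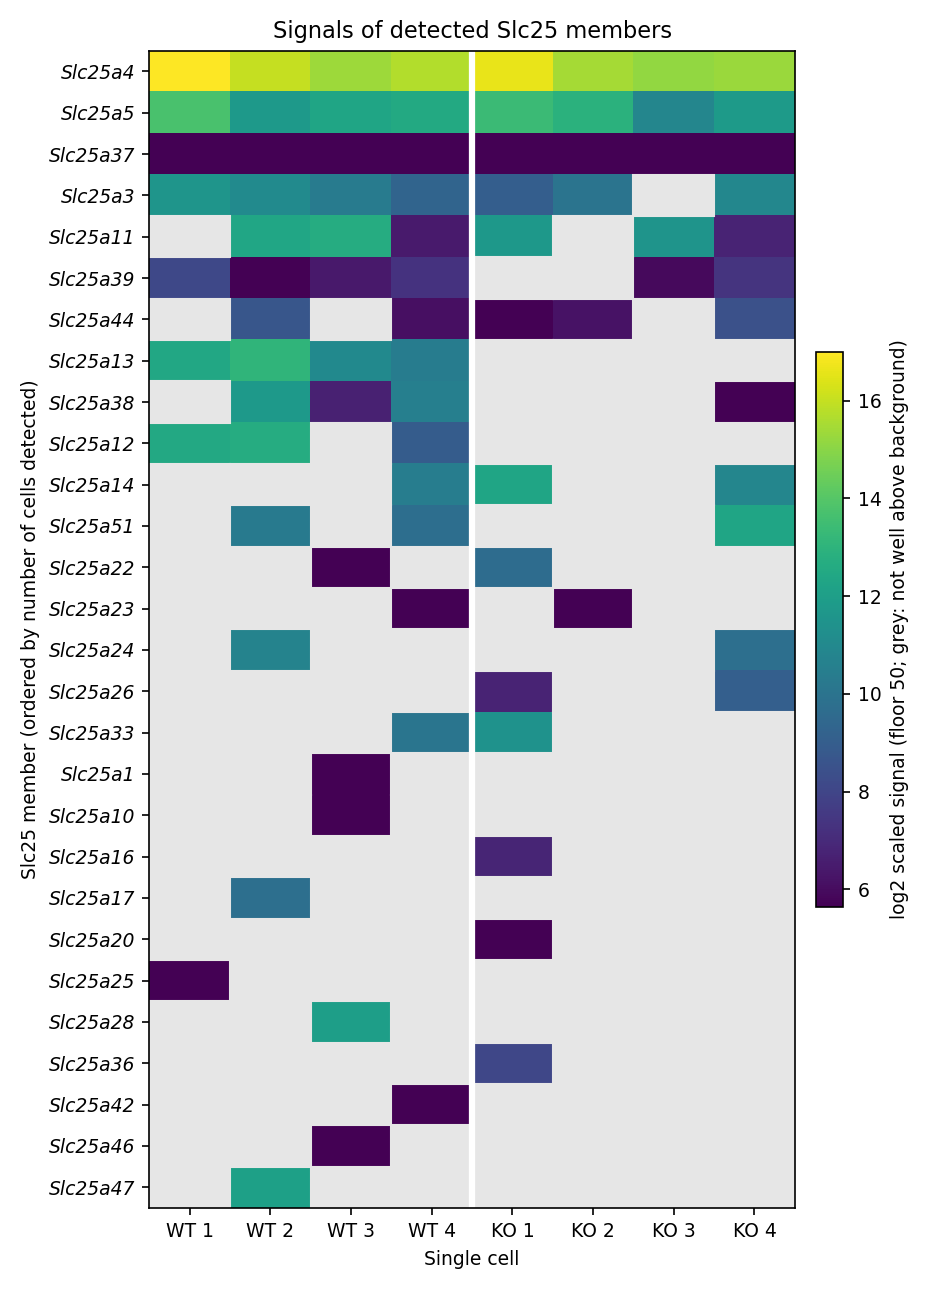
Log2 scaled signal (colour) of the Slc25 members described in the text that were detected in at least 1 cell, with members as rows ordered by the number of cells in which they were detected and the 8 cells as columns, WT left and KO right of the white line. Grey fields were not well above background and the darkest colour is the floor of 50. Slc25a4 and Slc25a5 are bright in every cell, Slc25a13 has signal in the 4 WT cells alone, and most lower members have signal in 1 to 3 cells.

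WT cells 1 to 4 read 9, 15, 14 and 16 members, and KO cells 1 to 4 read 14, 7, 6 and 13. The means were 13.5 ± 3.11 and 10 ± 4.08 (SD over the cells, n = 4 each), and the genotypes overlapped, since KO cells 1 and 4 read more members than WT cell 1. The difference of -3.5 lay between the SDs of the WT and the KO cells, which stand for the spread of single cells and not for an error of the means. The same difference was -1.25 when detection was read from the software's flag for positive and significant signal. The cells with the fewest members, KO cells 3 and 2 and WT cell 1, were also those with the fewest genes of any kind.

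**Figure D2:**
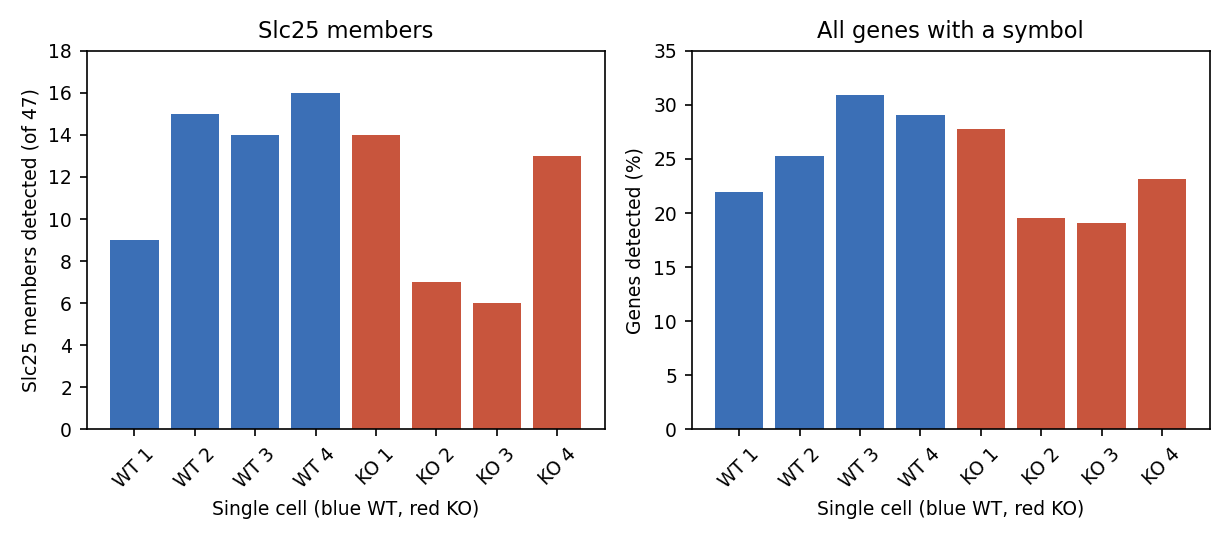
Number of the 47 Slc25 members detected (left panel) and share of all genes detected in % (right panel), 1 bar per cell, WT blue and KO red. KO cells 2 and 3 had the fewest members, 7 and 6, and the smallest shares of all genes, 19.5% and 19.11%.

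By the size rule 3 members, or 6.38%, were lower in KO cells, where 3.16% of all genes were, and 0 members were higher, where 0.831% of all genes were. Slc25a12 and Slc25a13 make up the whole of the aspartate/glutamate group, and Slc25a38 is a carrier of glycine for heme synthesis. Among the 10 members detected in at least 4 cells, 2 were lower (20%, against 9.97% of 5569 genes) and 0 higher (2.62% of these genes). Slc25a13 passed that filter through WT cells alone, and Slc25a38 through 3 WT cells and 1 KO cell at the floor. These shares and the differences that follow are therefore a description only. The median KO minus WT difference of these 10 members was -0.56 on the log2 scale, with 9 below 0, 0 above and 1 at 0. Of the 9, Slc25a4, Slc25a5, Slc25a11, Slc25a39 and Slc25a44 took the opposite sign in at least 1 alternative setting. Over the 5569 genes the median was 0.00, with 2530 below and 2356 above 0. Over all 47 members 15 differences were below 0, 6 above and 26 at 0.

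**Figure D3:**
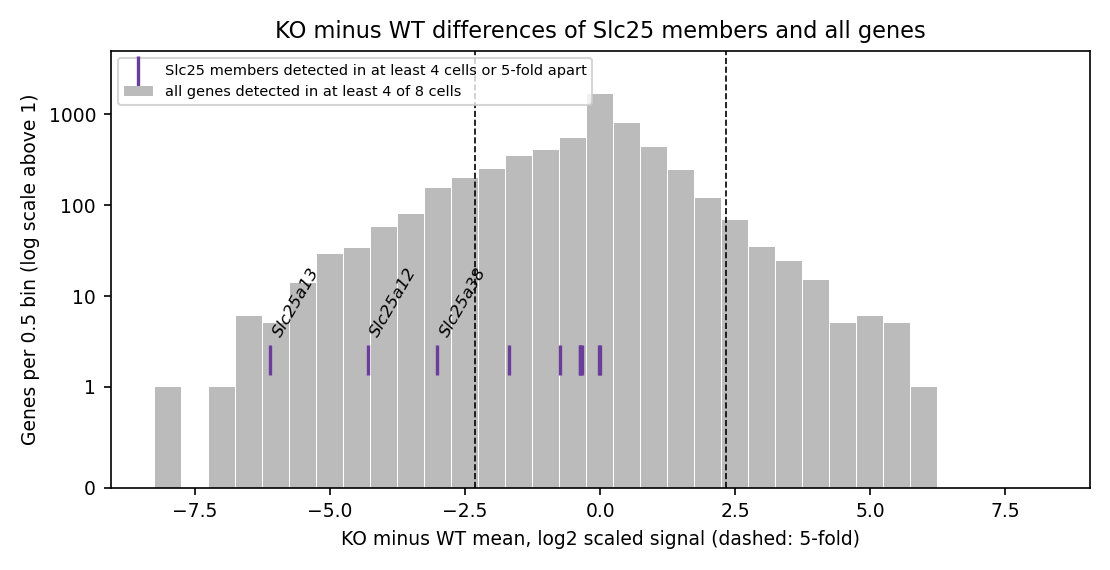
KO minus WT difference of mean log2 scaled signal (horizontal axis) of the 5569 genes detected in at least 4 of 8 cells, as grey bars of genes per bin on a log axis, with the Slc25 members described in the text that were detected in at least 4 cells or at least 5-fold apart as purple ticks at an arbitrary height. The dashed lines mark 5-fold. Slc25a13, Slc25a12 and Slc25a38 lie left of the lower line at -6.11, -4.30 and -3.02, and no Slc25 tick lies right of 0.

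Slc25a13 (citrin) and Slc25a12 (aralar) export aspartate from the matrix in exchange for glutamate and are regulated by calcium from the cytosolic side. WT cells 1 to 4 read Slc25a13 at 5619, 8740, 2096 and 1383, and each of the KO cells lay at the floor of 50. Detection was complete in WT cells and absent from KO cells, so every WT cell lay above every KO cell. The mean log2 signal was 11.75 ± 1.23 in WT cells (SD between cells, n = 4), and the difference was -6.11. As no KO cell read the gene, the fold is a bound, the mean of the WT cells over the mean, in KO cells, of the highest of the floor, the dimmest well-above-background signal of that array and the probe's own value. By this bound Slc25a13 was at least 69.1-fold lower in KO cells. It was the only member with this detection pattern, which 0.175% of all genes had, and 0 members had the reverse pattern (0.0125% of all genes). It was also the only member with no overlap between genotypes, where 0.457% of all genes had every KO cell below every WT cell. The gene had been singled out on these same cells before, so its values are no independent evidence.

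Slc25a12 read 5727, 6583, 50 and 500 in WT cells 1 to 4 and 50 in each KO cell. It was detected in WT cells 1, 2 and 4 and in 0 KO cells, and the genotypes overlapped through WT cell 3 alone, which lay at the floor. The difference was -4.30, from 9.94 ± 3.34 in WT cells (SD between cells, n = 4), or 19.7-fold lower in KO cells by the same calculation. For this gene the fold is no strict bound, since WT cell 3 was not detected and entered the WT mean at the floor. Detection in at least 3 WT cells and in 0 KO cells was found for Slc25a12 and Slc25a13, 4.26% of the members, and for 1.05% of all genes, while the reverse was found for 0 members and 0.183% of all genes. With 1 cell left out, the difference ranged from -6.55 to -5.66 for Slc25a13 and from -5.73 to -3.39 for Slc25a12, so both remained past 5-fold. Each of these genes had 1 probe on the array.

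The other carrier of the malate-aspartate shuttle, Slc25a11, exchanges malate for oxoglutarate. Its signal was 50, 5340, 6568 and 89 in WT cells and 3366, 50, 2975 and 110 in KO cells, and it was detected in 3 cells of each genotype. The cells of both genotypes spread over the same range, and the difference of -0.37 was small beside SDs of 3.75 and 3.16. With 1 cell left out it ranged from -1.59 to 0.75, so it had no settled sign.

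The shuttle's enzymes were read beside its carriers. Cytosolic malate dehydrogenase Mdh1 read 13025, 789 (WT cell 2), 3085 and 2041 in WT cells and 2499, 3784, 86 and 3553 in KO cells. Mitochondrial malate dehydrogenase Mdh2 read 43177, 9052, 10111 and 9792 in WT cells and 14417, 11439, 99.6 and 14288 in KO cells. Both were detected in all 8 cells, and KO cell 3 alone was far under the others in both. Their differences were -1.12 and -1.84. The cytosolic aspartate aminotransferase Got1 read 50, 738.8, 1393 and 1379 in WT cells and 238.4, 50, 4114 and 1560 in KO cells, a difference of 0.03.

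The probe named for the mitochondrial aspartate aminotransferase, Got2, went the other way from the aspartate/glutamate carriers. It read 50, 50, 148.9 and 50.7 in WT cells and 8309, 6042, 6908 and 220.4 in KO cells. It was detected in all 8 cells, and every KO cell lay above every WT cell, which was found for 0.349% of all genes. The means were 6.04 ± 0.78 and 11.53 ± 2.50 (SD between cells, n = 4 each), a difference of 5.49 or 44.9-fold, and 4.99 to 6.74 with 1 cell left out. This size is set in part by the floor, at which WT cells 1 and 2 lay, and the difference was 6.19 with no floor. The file places this probe at chr5:138804798-138804857 in mm9, while RefSeq places Got2 on chromosome 8, so which copy of the sequence it reads is uncertain.

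**Figure D4:**
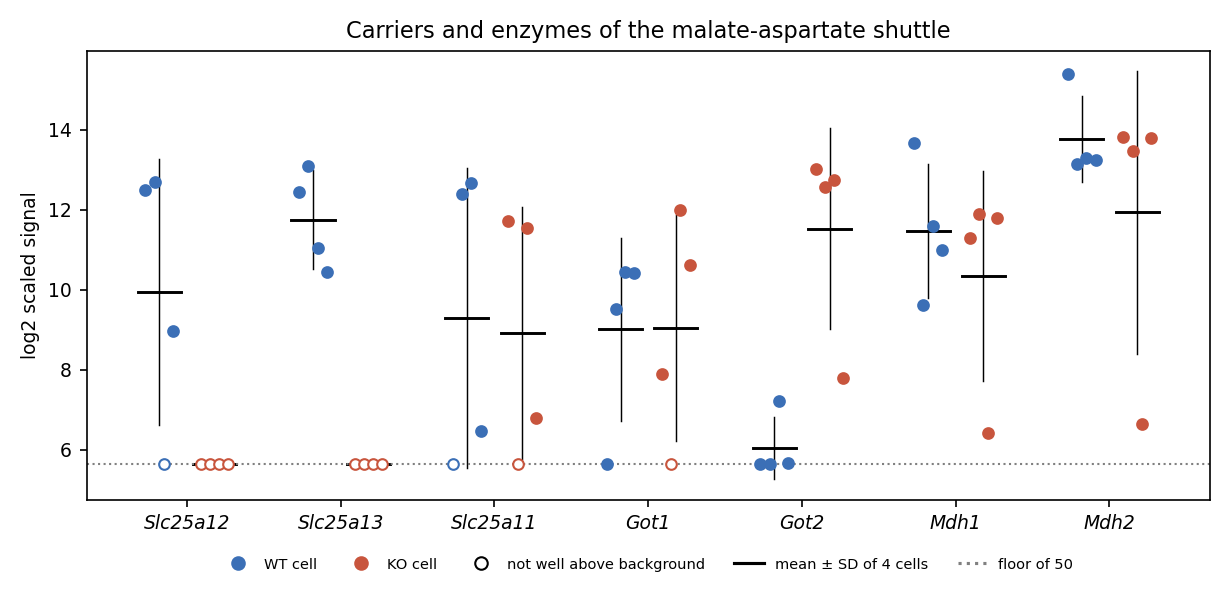
Log2 scaled signal (vertical axis) of 3 carriers and 4 enzymes of the malate-aspartate shuttle in each cell, WT blue and KO red, open circles not well above background, with the mean as a bar and the SD over 4 cells as a line, and the floor of 50 dotted. The KO cells of Slc25a12 and Slc25a13 all lie at the floor, those of Got2 all lie above the WT cells, and the genotypes overlap for Slc25a11, Got1, Mdh1 and Mdh2.

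Glycine for the first step of heme synthesis is brought in by Slc25a38. Its signal was 50, 3493, 104 and 1488 in WT cells and 50 in each KO cell, and it was detected in WT cells 2, 3 and 4 and, at the floor, in KO cell 4. WT cell 1 lay at the floor with the KO cells. The difference was -3.02 from 8.66 ± 2.95 in WT cells (SD between cells, n = 4), or 8.11-fold. This size is set in part by the floor, at which all KO cells lay, and was -5.26 with no floor. It shrank to -1.99, inside the 5-fold rule, without WT cell 2. The related carriers of this group differed less or were not read. Slc25a39, a carrier of glutathione, read 278.4, 50, 85.0 and 159.2 in WT cells and 50, 50, 60.3 and 160.9 in KO cells, was detected in 4 WT and 2 KO cells, and differed by -0.74. Slc25a40 was detected in 0 cells by both of its probes.

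The iron importers of mitochondria are Slc25a37 (mitoferrin 1), best known from red blood cells, and Slc25a28 (mitoferrin 2), used in most other tissues. The chosen Slc25a37 probe was detected in all 8 cells but lay at the floor in each, with signals of 11.4 to 27.3 before the floor was set, and so had a difference of 0.00. Its other probe, 42777 bases away, read 50, 50, 3893 and 5669 in WT cells and 50 in each KO cell, was detected in 2 WT and 0 KO cells, and differed by -3.28. The probes had the same detection in only 2 of 8 cells, so the gene has no single value here. Slc25a28 was detected in WT cell 3 alone, at 4088. Markers of red blood cells were detected by 0 of 7 probes in each WT cell and by 0 to 1 in each KO cell.

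The carriers that serve ATP synthesis were read in nearly every cell. Slc25a4, the ADP/ATP carrier of heart and skeletal muscle, read 133309, 65919, 41610 and 52381 in WT cells and 101992, 44926, 36269 and 40249 in KO cells. The genotypes overlapped, with log2 means of 16.01 ± 0.73 and 15.63 ± 0.68 (SD between cells, n = 4 each), and the difference of -0.38 was under either SD. The probe was printed as 10 spots, whose SD on an array was 0.04 to 0.06, far under the spread between cells. The probe named Slc25a5, after the ADP/ATP carrier found in most tissues, read 13702, 3398, 5162 and 5873 in WT cells and 10778, 7726, 1876 and 3627 in KO cells, a difference of -0.33. It is placed on chromosome 1 in the file while the RefSeq gene lies on X, so which copy of the sequence it reads is uncertain. Its other probe, placed on chromosome 14 and so not on X either, was also detected in all 8 cells and differed by 0.20. The sign thus depends on the probe. The germ-cell form Slc25a31 was detected in 0 cells.

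Slc25a3 carries phosphate into the matrix. Its signal was 3068, 2145, 1328 and 641 in the WT cells and 518, 1024, 50 and 1924 in the KO cells. KO cells 1 and 3 lay under every WT cell, whereas KO cell 4 exceeded WT cells 3 and 4. The genotype means differed by -1.69, with SDs of 0.98 and 2.30, and this ranged from -2.37 without KO cell 4, past 5-fold, to -0.61 without KO cell 3. Its other probe, 198 bases away, had the same detection in only 4 of 8 cells, was detected in 3 and differed by -0.50. The ATP-Mg/phosphate carriers, which set the adenine nucleotide pool of the matrix, were read in few cells. Slc25a24 read 1695 in WT cell 2 and 897.6 in KO cell 4, Slc25a23 was detected in WT cell 4 and KO cell 2 and Slc25a25 in WT cell 1, each at the floor, and Slc25a41 was detected in 0 cells.

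Of the 9 carriers of cofactors and nucleotides, 7 were detected in 1 to 3 cells. Slc25a51, a carrier of NAD, read 1266 in WT cell 2, 871.7 in WT cell 4 and 5153 in KO cell 4. Slc25a33, a carrier of pyrimidine nucleotides, read 1052 in WT cell 4 and 2750 in KO cell 1. Its relative Slc25a36 read 268.5 in KO cell 1, where Slc25a16, linked to coenzyme A, read 113.1. None of these was read in every cell of a genotype. Slc25a26, which imports S-adenosylmethionine, read 108.2 in KO cell 1 and 549.0 in KO cell 4 and was detected in 0 WT cells, but its other probe was detected in WT cell 4 alone, and the 2 probes differed by 1.14 and -0.74. Slc25a17, a peroxisomal carrier of cofactors, read 889.7 in WT cell 2. Slc25a42, a carrier of coenzyme A, was detected at the floor in WT cell 4, and Slc25a32, linked to folate, in 0 cells.

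Carriers of amino acids and carboxylates outside the shuttle were read in few cells. Slc25a44, a carrier of branched-chain amino acids, read 50, 405.8, 50 and 68.8 in WT cells and 50, 72.5, 50 and 352.7 in KO cells, was detected in 2 WT and 3 KO cells and differed by -0.03. The glutamate carrier Slc25a22 was detected at the floor in WT cell 3 and read 810.3 in KO cell 1, and Slc25a18 was detected in 0 cells. The citrate carrier Slc25a1 and the dicarboxylate carrier Slc25a10 were detected at the floor in WT cell 3 alone, and the acylcarnitine carrier Slc25a20, which serves fatty acid oxidation, at the floor in KO cell 1 alone. The ornithine and basic amino acid carriers Slc25a2, Slc25a15 and Slc25a29 and the oxodicarboxylate carrier Slc25a21 were detected in 0 cells.

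Slc25a14, a relative of the uncoupling proteins, had the largest positive difference of the 47 members, 1.76. It read 1416 in WT cell 4, 5090 in KO cell 1 and 1827 in KO cell 4 and lay at the floor in the other 5 cells, and the difference passed 5-fold when WT cell 4, KO cell 2 or KO cell 3 was left out. Slc25a27 and Slc25a30, of the same group, were detected in 0 cells. Slc25a47 read 4424 in WT cell 2 alone, and Slc25a46, of the outer membrane, was detected at the floor in 1 WT cell. The remaining members detected in 0 cells were Slc25a34, Slc25a35, Slc25a43, Slc25a45, Slc25a48, Slc25a53 and Slc25a54.

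Of the 12 members with 2 probes, the probes gave the same detection in all 8 cells for 5, and 3 of these were detected by neither. The pairs of Slc25a3, Slc25a26 and Slc25a37 were the ones that differed in 3 or more cells. For the 35 members with 1 probe, Slc25a12, Slc25a13 and Slc25a38 among them, no such comparison could be made.

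Carriers under other names, shuttle enzymes and the arginine synthesis genes Ass1 and Asl formed a list of 20 genes, of which 16 were detected in at least 1 cell. By the size rule 0 of the 20 were lower and 2 were higher, where 3.16% and 0.831% of all genes were. The genes that were higher were Got2 and Mtch2, an outer-membrane relative of the Slc25 carriers. Mtch2 read 50, 50, 140.6 and 3712 in WT cells and 24071, 3348, 8281 and 68.4 in KO cells, with overlap through WT cell 4 and KO cell 4. Its difference of 3.77 was 13.7-fold, but its other probe was detected in 2 WT and 0 KO cells and differed by -0.43. Mtch1, its close relative, read 12419, 2127, 4547 and 6860 in WT cells and 229.8, 10053, 10733 and 8438 in KO cells, a difference of -0.49 with KO cell 1 far under the others. The pyruvate carrier subunits Mpc1 and Mpc2 were each detected in 2 cells of either genotype and differed by -0.51 and -0.19. The Mpc1 probe is placed on another chromosome in the file than in RefSeq, so which copy of the sequence it reads is uncertain. Ucp1, Ucp3, Sfxn4 and Gpd1 were detected in 0 cells.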

How the data were processed

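The authors amplified the cDNA of each cell, made RNA from it with T3 polymerase, coupled Cy3 and used 1-colour Agilent arrays of 60-base probes. The deposited values are intensity values on a linear scale from Feature Extraction 12.0.2.2, background-corrected by that software, and its 0 or 1 flags for each spot, with probe positions in mm9 per the file headers. The authors state that levels under 50 were set to 50 and arrays scaled on the 50th percentile. Their later subtraction of gene lists was not used here. Control spots and outlier spots (146 to 220 per array, 3 on Slc25 probes) were left out, and 0 spots were saturated. Spots printed with the same probe were averaged on the log2 scale (55681 probes). Each array was shifted by -0.756 to 0.679 to equal 50th percentiles over the 5300 probes detected on all 8 arrays, and the floor of 50 was then set. The number of arrays limits the precision, and negative control spots were well above background in 0 to 1.3% per array. Symbols were those of the array, and all 47 were RefSeq symbols, with 44 probes on the RefSeq chromosome, 2 unmapped and 1 elsewhere. Computations used Python 3.11.15, numpy 2.4.6, pandas 2.3.3 and, for the normexp background, R 4.3.3 with limma 3.58.1, and the steps were tested on simulated data. The changed genes of that simulation had a small spread and lay above the floor in both genotypes. Genes with cells at the floor, such as Slc25a13, were therefore not covered by it. Every member is accounted for, except 1 whose values are not reported here. Those detected in at least 4 cells or at least 5-fold apart are given with values, those detected in 1 to 3 cells by those cells, and those detected in 0 cells by name. Related genes are named where they were at least 5-fold apart or did not overlap, and the other related genes given with values were chosen after their values were seen. The members, lists and rules were chosen with earlier results of these data known. Alternatives covered background, scaling, floor, averaging, probe choice, detection rule and leaving out cells. Protein sequences were not analysed here.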

Additional observations from a re-analysis of the deposited data

How the results depend on the processing

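Slc25a12 and Slc25a13 were at least 5-fold lower in KO cells in every alternative that gave them a value (Slc25a12 was not among the members detected in at least 4 cells, where 2 were lower), and Slc25a38 in all but 2, a floor of 100 (-2.27) and the omission of WT cell 2 (-1.99). The count of lower members was 3, and it was 7 with no floor, which added Slc25a3, Slc25a28, Slc25a39 and Slc25a47, and 2 to 4 with 1 cell left out. The count of higher members was 0, and it was 2 with no floor (Slc25a14 and Slc25a26), 1 with the median over cells, 1 without the 3 cells of lowest detection (WT cell 1 and KO cells 2 and 3, a choice made after seeing the data), and 0 to 1 with 1 cell left out, each time Slc25a14 in the last 3. The count with no overlap was 1, and it was 4 with normexp background (Slc25a13, Slc25a16, Slc25a26 and Slc25a36), 3 with no floor, 4 without those 3 cells and 1 to 2 with 1 cell left out. Without a floor the values under 50 are ordered again, and for the other alternatives the cause was not tested. The median difference of the members detected in at least 4 cells was -1.01 to -0.54 with 1 cell left out, and the difference in members detected per cell -5.0 to -2.167. The latter was -1.25 by positive and significant signal, -2.75 by signal above 50 and -4.25 by any probe. Without the 3 cells of lowest detection the values were -0.15 and -1.5. Of 234 single-gene values for 13 genes, 226 stayed within the spread between cells of the reported value and 8 moved beyond it. Leaving out 1 of 4 cells cannot move a difference beyond that spread, so such values say nothing on stability. Of the 234, 18 had the opposite sign, all in 5 genes under 5-fold apart and 0 in the 5 at least 5-fold apart. The 0 is partly forced, as leaving out cells could not reverse Slc25a12, Slc25a13 and Slc25a38 (KO cells at the floor) or Got2 (no overlap). Slc25a4 (0.29) and Slc25a39 (0.03) changed sign only without the 3 cells of lowest detection. Slc25a5 reached 0.42 without them and 0.13 without KO cell 3, Slc25a11 0.75 without WT cell 3 and Slc25a44 1.34 with no floor. With all cells kept, the values of Slc25a13 ran from -10.58 with no floor to -5.11 with a floor of 100, and those of Slc25a12 from -7.41 to -3.55. Mtch2 was under 5-fold with the mean of its probes (1.67) and without the 3 cells (2.11). Over all genes detected in 8 cells the median difference was 0.13 as reported, 0.33 with quantile normalization, 0.28 with normexp background and 0.00 when scaled over all probes. No paired analysis was possible because replicate numbers only name cells of a genotype and no test was made. Of 14 groups of 4 cells examined for a cell far from the others, 0 passed the Dixon limit, where chance passes about 1 in 20. This covers those 14 groups only and not every gene given with values. KO cell 3 stood far under the other KO cells for Mdh1 and Mdh2, as did KO cell 1 for Mtch1 and KO cell 4 for Got2. Signals of 5.16 to 14.02 were the lowest called well above background, so transcripts under these levels could not be read.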
